A study of Mus musculus with 4 samples.

Results

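The genes of MHC class I and of its peptide loading machinery were examined in Py8119 cells, a mouse mammary tumour line of C57BL/6 origin that the labels call mesenchymal-like. The members were the 10 rows of the deposited table, out of 50600, whose symbol is H2-K1, H2-D1, H2-T23, B2m, Tap1, Tap2, Tapbp, Tapbpl, Nlrc5 or Erap1. Cells overexpressing Mtss1, a scaffold protein that bends membranes and binds actin, were compared with control cells titled hygro, with 2 libraries each. Both populations grew in the same serum-containing medium without further treatment. The vector, its promoter and the clonality of the lines are not given in the sources used here. No label says that replicates were grown separately, and the p-values therefore reflect library-to-library spread that could be purely technical. That spread was mostly pooled across genes in the fit, so a small p-value does not measure the agreement of a gene's own libraries. The class I genes vary between mouse strains, and the labelled strain is that of the reference genome.

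Class I molecules display short peptides from the cell's own proteins to CD8 T cells and NK cells. A heavy chain, here from H2-K1, H2-D1 or H2-T23, pairs with the light chain beta-2 microglobulin. Proteasomes cut the peptides, the TAP transporter moves them into the endoplasmic reticulum, the aminopeptidase ERAP1 trims them there, and tapasin and its relative TAPBPR help the heavy chain to keep those that bind well. Class I genes are driven by the transactivator NLRC5, together with interferon regulatory factors and NF-kB, whose p65 subunit is named in the title of the series.

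Values were deposited as CPM, read counts scaled by library, with column sums from 982877 to 1016225. From the step between values, the column sums stood for 15594210 and 16656639 recovered reads in overexpression 1 and 2. In control 1 and 2 they stood for 20617788 and 22081639. These recovered reads count what was assigned to genes, and a unit may be a read pair. Mtss1 itself read 118 and 119 CPM in overexpressing cells, against 54.5 and 50.5 CPM in control cells, so the labels held for the introduced gene. Of 12510 genes that reached 1 CPM in at least 2 libraries, limma called 31.9% higher and 34.2% lower with overexpression at an adjusted p under 0.05, together 66.1%, and the groups did not overlap for 81.6%. Against that background the call of a single gene was common. The mesenchymal marker Vim was abundant, at 4197 and 4058 CPM in overexpressing cells and 4010 and 4302 CPM in control cells. The epithelial marker Epcam was at 0 in all libraries. The 10 mesenchymal markers, all tested, included 3 higher and 5 lower and summed to 12960 and 13130 CPM in overexpressing cells, against 15160 and 15280 CPM in control cells. Most of that sum is Fn1, at 7960 and 8244 CPM in overexpressing cells and 10030 and 9858 CPM in control cells. Of 8 epithelial markers, Krt8 and Krt18 were tested and lower, 3 were at 0 in all libraries, and the sum was 601 and 603 CPM in overexpressing cells, against 849 and 893 CPM in control cells. Krt8 read 367 and 368 CPM in overexpressing cells and 562 and 608 CPM in control cells. Krt18 read 234 and 235 CPM in overexpressing cells and 287 and 285 CPM in control cells. Of 7 endothelial markers 1 was tested and did not pass, with sums of 1.70 and 2.08 CPM in overexpressing cells and 1.71 and 1.75 CPM in control cells. None of 18 immune cell markers passed the filter. Their summed level was 1.80 and 1.40 CPM in overexpressing cells and 0.902 and 1.07 CPM in control cells, 11 of the 18 were at 0 throughout, and Ptprc, which encodes CD45, read at most 0.098 CPM. S100a8 held the larger share of each sum, at 1.198 and 0.952 CPM in overexpressing cells and 0.637 and 0.552 CPM in control cells. The part of these marker levels in the results was not tested. Fewer transcripts per cell and fewer cells that express a gene cannot be told apart in such bulk libraries.

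All 10 members passed the filter. With Mtss1 overexpression 6 were lower (H2-T23, Tap2, Tapbp, Tapbpl, Nlrc5 and Erap1), 2 were higher (H2-D1 and Tap1) and 2 did not pass the test (H2-K1 and B2m). The groups did not overlap for 9 of the 10, all but B2m. Over all tested genes 34.2% were lower, 31.9% were higher, and the groups did not overlap for 81.6%. The members' median log2 fold change was -0.14, against -0.01 over all tested genes, and their median absolute change was 0.17, against 0.28. The transactivator Nlrc5 and the peptide editor Tapbpl fell most, to 0.596 and 0.566 of the control mean, whereas the classical heavy chains and their light chain differed from it by at most 6.84%. All fold changes were fitted to log2(CPM + 1), which understates the change of low genes such as Tapbpl.

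**Figure D1:**
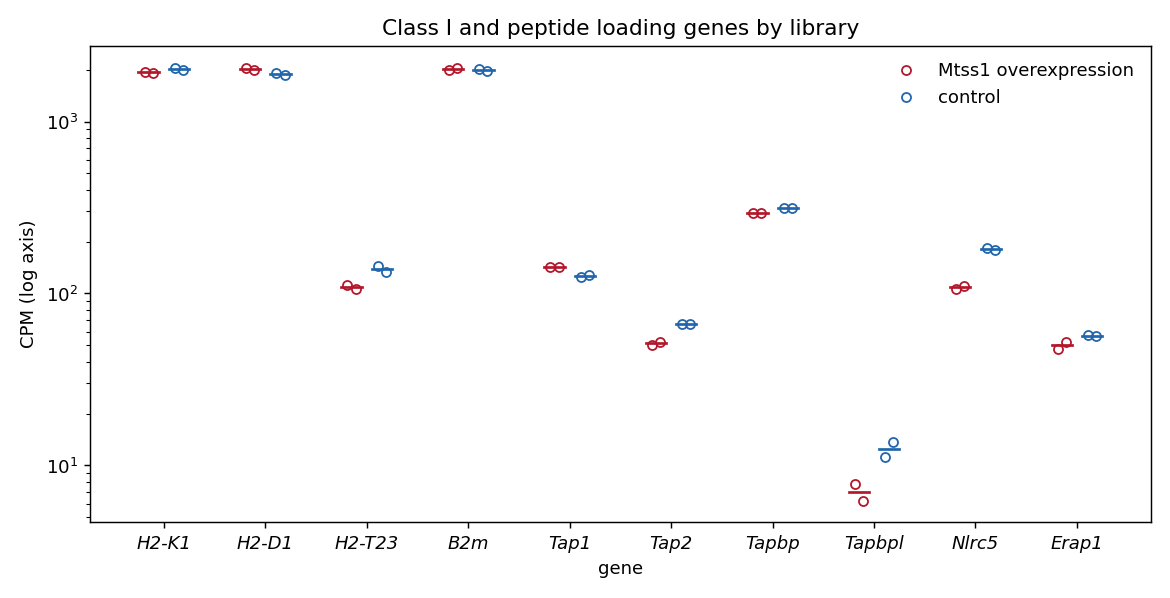
Each point is 1 library's CPM (log axis) for the gene on the horizontal axis, with Mtss1 overexpression left and red and control right and blue, and lines mark the means of 2 libraries. H2-K1, H2-D1 and B2m sit together near 2000 CPM in all 4 libraries, while Nlrc5 lies near 109 CPM with overexpression and 182 CPM in control.

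Nlrc5 encodes an NLR family protein that acts in the nucleus on class I promoters. It read 106 and 111 CPM in overexpressing cells, against 184 and 180 CPM in control cells. Both overexpressing libraries lay far below both control libraries. The mean was 109 ± 3.08 CPM with overexpression and 182 ± 2.93 CPM in control (SD, n = 2 each), a ratio of 0.596. The fitted log2 fold change was -0.74 ± 0.04 (SE, limma adjusted p = 4.5e-13), and 7.34% of all tested genes had a change at or below it. Over 12 alternative settings it ran from -0.77 to -0.70. The gene is found at chr8:94434356-94527272 (mm10, plus strand), and 78 of its exon bases overlap the lincRNA 9330175E14Rik on the other strand, which read at most 7.01 CPM. No 150-base stretch of its transcript occurred in a transcript of another gene, and its recovered reads were whole numbers in all 4 libraries.

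By the distance between centred log2(CPM + 1) profiles over the 4 libraries, the 3 protein-coding genes most like Nlrc5 were Nop58, a core protein of box C/D small nucleolar ribonucleoproteins (distance 0.0124), Iars, the cytosolic isoleucyl-tRNA synthetase gene (0.0131), and Ncl, which encodes nucleolin (0.0168). Nop58 read 72.0 and 74.7 CPM in overexpressing cells and 125 and 121 CPM in control cells. The likeness rests on 4 libraries in 2 groups, so it mostly says that these genes fell by a like amount.

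The classical heavy chain genes H2-K1 and H2-D1 encode the molecules that present peptides to CD8 T cells. Placed at chr17:33996017-34000347 (mm10, minus strand), H2-K1 read 1945 and 1918 CPM in overexpressing cells, against 2058 and 1994 CPM in control cells. Both overexpressing libraries were lower than both control libraries, by 4.68% in the mean, and the call was missed with a log2 fold change of -0.07 ± 0.03 (SE, limma adjusted p = 0.075) and a 95% interval from -0.14 to 0.0006. It did pass with limma-voom on the recovered reads (adjusted p = 0.0175) and without control 2 (adjusted p = 0.0131). Placed at chr17:35262730-35267499 (plus strand), H2-D1 read 2036 and 1995 CPM in overexpressing cells, against 1905 and 1869 CPM in control cells. It lay higher in both overexpressing libraries, by 6.84% in the mean, with a log2 fold change of 0.10 ± 0.03 (SE, limma adjusted p = 0.015). That call was lost without overexpression 1 (log2 fold change 0.08, adjusted p = 0.15) and when genes of any level were tested (adjusted p = 0.092).

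The balance of the pair differed between the groups by more than the spread within them. The ratio of H2-D1 to H2-K1 was 1.05 and 1.04 in overexpressing cells, against 0.925 and 0.938 in control cells. On the log2 scale it differed by 0.16 between the groups, which did not overlap. The exact two-sided permutation test over the 4 libraries gave p = 0.333, the smallest value that 2 against 2 allow, here and for the other ratios without overlap. The sum of H2-K1 and H2-D1 was 3981 and 3913 CPM in overexpressing cells and 3963 and 3863 CPM in control cells, and these ranges overlapped. The coding sequences of H2-K1 and H2-D1 are identical at 91.5% of 1080 aligned positions. Of the 150-base windows of the transcript, none for H2-K1 and 1.79% for H2-D1 occurred in another gene, all of these in H2-Q1, which read at most 0.445 CPM. Recovered reads of H2-D1 were not whole in 3 of 4 libraries, and those of H2-K1 were not whole in overexpression 1 (tolerance 0.01 read).

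B2m encodes beta-2 microglobulin, the light chain common to all class I molecules, and is found at chr2:122147686-122153083 (mm10, plus strand). It read 2000 and 2042 CPM in overexpressing cells, against 2007 and 1979 CPM in control cells. The groups overlapped, the log2 fold change was 0.02 ± 0.03 (SE, limma adjusted p = 0.62), and its 95% interval ran from -0.05 to 0.09. The ratio of summed H2-K1 and H2-D1 to B2m was 1.99 and 1.92 in overexpressing cells and 1.98 and 1.95 in control cells, a log2 difference of -0.01 (exact permutation p = 1.0). Relative to Nlrc5, however, the summed heavy chains stood at 37.4 and 35.3 in overexpressing cells, against 21.5 and 21.5 in control cells, a log2 difference of 0.76. With the mean of that sum at 1.01 of control, this ratio mainly restates the fall of Nlrc5. This ratio and those of H2-D1 to H2-K1, Tap1 to Tap2 and Psmb9 to Psmb10 were chosen after the values were seen. Per kilobase of exon, B2m was the 7th most abundant of 11315 ranked protein-coding genes in overexpressing cells and the 5th in control cells, H2-K1 the 26th and the 29th, and H2-D1 the 37th and the 47th.

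H2-T23 encodes Qa-1, a non-classical heavy chain recognised by NKG2A receptors on NK cells and CD8 T cells, and is found at chr17:36029773-36032855 (mm10, minus strand). It read 112 and 106 CPM in overexpressing cells, against 145 and 134 CPM in control cells. Both overexpressing libraries were lower, with a mean of 0.785 of control and a log2 fold change of -0.35 ± 0.05 (SE, limma adjusted p = 9.6e-07). Its coding sequence shares 82.9% of aligned positions with that of H2-K1. Its recovered reads were whole in both overexpressing libraries but not in control 1 and 2 (2963.77 and 2901.75 reads). Per kilobase its level was far below the classical chains, at 74.3 ± 2.84 CPM per kb in overexpressing cells and 94.7 ± 5.59 in control cells, against 1167 ± 11.6 and 1224 ± 27.7 for H2-K1 (SD, n = 2 each).

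The series concerns p65, and the class I promoters are textbook NF-kB and interferon targets, so the 180 bases before the RefSeq start (GRCm38.p6) are shown for the 3 heavy chain genes and B2m. For H2-D1 this stretch lies inside the gene bounds given above, and for H2-T23 mostly inside them. The annotations thus place these starts differently, and distances from the start depend on the annotation. Capitals mark matches to the NF-kB consensus, to the IRF element (GAAA, any 2 bases, GAAA) and to TGACGC, a cAMP-response-type element of class I promoters, all searched on both strands from 250 bases before to 50 bases after the start.
H2-K1 (chr17:34000348-34000527, minus strand): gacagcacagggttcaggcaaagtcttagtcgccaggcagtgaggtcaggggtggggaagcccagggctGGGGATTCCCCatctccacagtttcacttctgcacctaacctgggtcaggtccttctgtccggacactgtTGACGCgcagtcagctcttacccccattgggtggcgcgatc
H2-D1 (chr17:35262914-35263093, plus strand): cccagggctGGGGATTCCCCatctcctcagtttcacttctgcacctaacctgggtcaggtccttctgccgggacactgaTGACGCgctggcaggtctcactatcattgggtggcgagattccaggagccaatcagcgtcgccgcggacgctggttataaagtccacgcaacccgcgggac
B2m (chr2:122147507-122147686, plus strand): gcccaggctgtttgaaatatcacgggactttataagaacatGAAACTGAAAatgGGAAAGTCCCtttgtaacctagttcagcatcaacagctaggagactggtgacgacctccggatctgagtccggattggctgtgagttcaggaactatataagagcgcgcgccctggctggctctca
H2-T23 (chr17:36032702-36032881, minus strand): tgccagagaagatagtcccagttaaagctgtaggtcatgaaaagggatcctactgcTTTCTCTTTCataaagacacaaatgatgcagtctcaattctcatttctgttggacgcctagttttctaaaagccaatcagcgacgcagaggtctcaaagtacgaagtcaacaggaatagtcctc

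H2-K1 and H2-D1 both hold the 11-base site GGGGATTCCCC, which contains overlapping matches to the NF-kB consensus on both strands and begins 111 and 171 bases before the RefSeq start. That site occurs in 6 of 27025 promoter windows (0.0222%), and the NF-kB consensus in 4.35%. Its letters were read from the H2-K1 promoter, so its presence there was fixed in advance. The share of an exact 11-base site is also not comparable with that of a looser consensus. From 9 bases before the site, 107 of the next 120 bases are identical between the promoters of H2-K1 and H2-D1, and both carry TGACGC, found in 7.5% of windows. B2m has an NF-kB match 126 bases and an IRF element 139 bases before its start. H2-T23 has an IRF element and no NF-kB match in this window, and 3.49% of all windows hold an IRF element. H2-K1 and H2-D1 have no match to this exact IRF pattern. Looser forms of it were not searched, so an interferon element there may have been missed. Of the 7 members with a promoter entry, H2-K1, H2-D1 and B2m were those with an NF-kB match, and their log2 fold changes were -0.07, 0.10 and 0.02. Those of the other 4 with an entry were -0.35 (H2-T23), 0.17 (Tap1), -0.10 (Tapbp) and -0.18 (Erap1). A match is no evidence of binding, and p65 protein was not measured in these data.

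**Figure D2:**
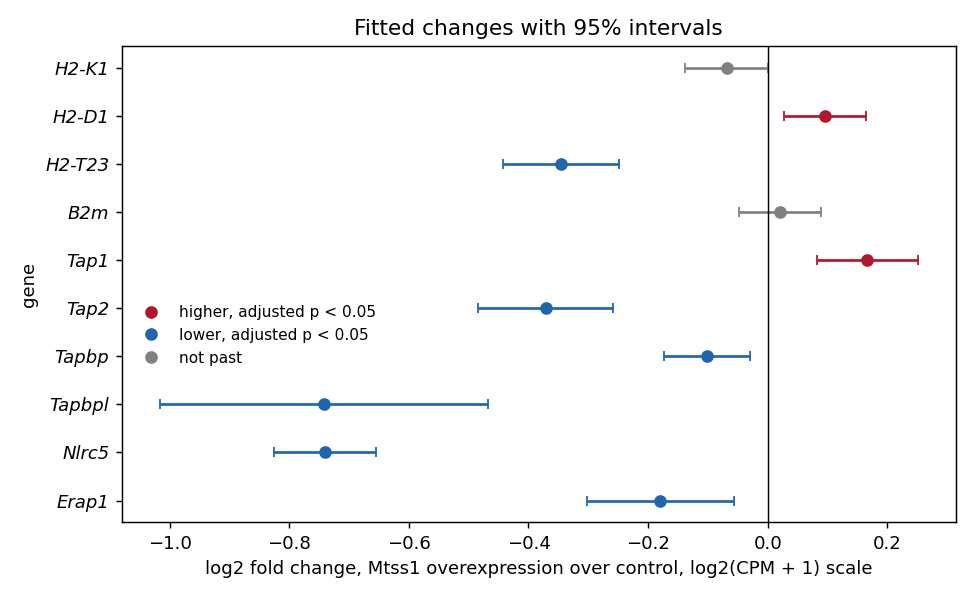
Points are limma log2 fold changes, Mtss1 overexpression over control, with 95% intervals, for the 10 genes. Nlrc5 and Tapbpl lie near -0.74, with the wider interval for the low gene Tapbpl, and H2-D1 and Tap1 are the genes to the right of 0 whose intervals exclude it.

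The partner genes of the peptide transporter moved in opposite directions. Tap1 and Tap2 encode the partners of the ATP-driven TAP heterodimer, which needs both. Tap1 read 143 and 142 CPM in overexpressing cells, against 125 and 128 CPM in control cells, a log2 fold change of 0.17 ± 0.04 (SE, limma adjusted p = 0.0011). Tap2 read 50.1 and 52.5 CPM in overexpressing cells, against 66.8 and 66.5 CPM in control cells, a log2 fold change of -0.37 ± 0.05 (SE, limma adjusted p = 3.1e-06). The groups did not overlap for either gene, and both directions and calls held in all 12 alternative settings. The ratio of Tap1 to Tap2 was 2.85 and 2.70 in overexpressing cells, against 1.88 and 1.93 in control cells, a log2 difference of 0.54. Per kilobase, Tap1 stood at 48.2 ± 0.211 CPM per kb and Tap2 at 14.9 ± 0.501 in overexpressing cells, against 42.9 ± 0.673 and 19.4 ± 0.0460 in control cells (SD, n = 2 each).

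Both transporter genes lie in the MHC on chromosome 17 (mm10), Tap1 from 34187553 to 34197225 and Tap2 from 34203527 to 34216321, in a block of 34.3 kb with the immunoproteasome genes Psmb9 and Psmb8. Psmb9 starts head to head with Tap1. In order along the block, Psmb9 rose by 0.47 ± 0.07 on the log2 scale (48.8 and 43.8 CPM in overexpressing cells, 31.1 and 35.01 CPM in control cells, limma adjusted p = 5.3e-06), Tap1 rose by 0.17, Psmb8 had a change of 0.11 ± 0.06 that did not pass (adjusted p = 0.12), and Tap2 fell by 0.37. The annotated exons of Tap1 and Psmb9 overlap by 212 bases on opposite strands, and no source states that counting used the strand, so reads of that overlap cannot be told apart. Of the 150-base windows of Tap1, 2.25% occur in Psmb9 transcripts, and the recovered reads of Tap1 were not whole in any library.

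**Figure D3:**
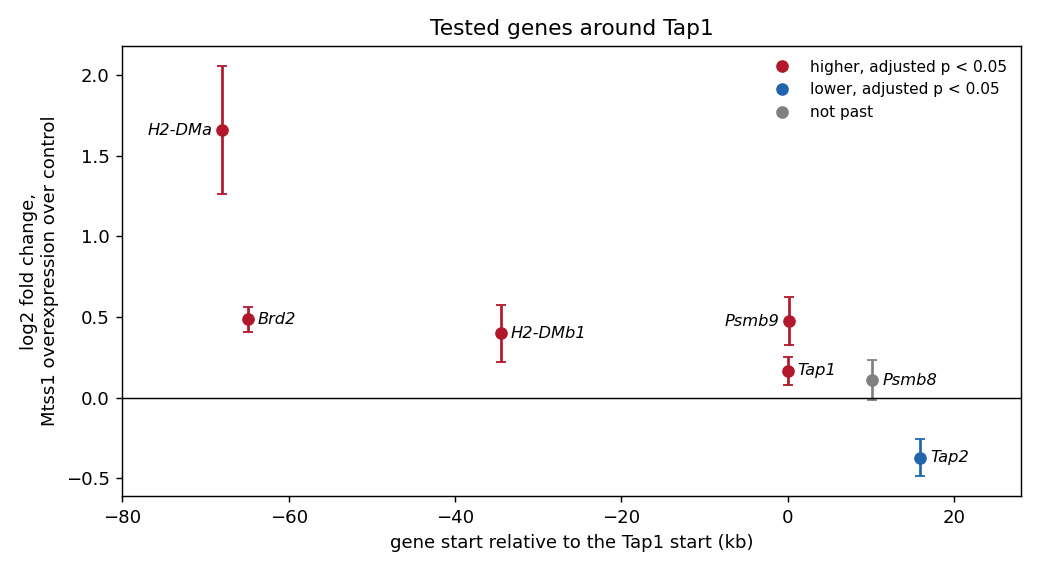
Tested genes within 100 kb of Tap1 are placed by the distance of their start from the Tap1 start (kb), with the limma log2 fold change, Mtss1 overexpression over control, and its 95% interval. Psmb9 and Tap1, which start next to each other, lie above 0 at 0.47 and 0.17, and Tap2 lies below at -0.37.

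Tapbp encodes tapasin, which bridges TAP and the waiting heavy chain, and is found at chr17:33915899-33929292 (mm10, plus strand). It read 294 and 292 CPM in overexpressing cells, against 315 and 315 CPM in control cells. Both overexpressing libraries were lower, by 6.84% in the mean, and the log2 fold change was -0.10 ± 0.03 (SE, limma adjusted p = 0.013). The call was lost when each library was scaled to its own sum (log2 fold change -0.06, adjusted p = 0.097) and without overexpression 2 (adjusted p = 0.061). The antisense gene Gm19412 covers 904 exon bases of Tapbp but read at most 0.298 CPM.

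Tapbpl encodes TAPBPR, a tapasin relative that edits peptides outside the loading complex. It was the lowest member, at 7.82 and 6.25 CPM in overexpressing cells, against 11.2 and 13.6 CPM in control cells. These values stand for 124 and 105 recovered reads in overexpressing cells, against 229 and 296 reads in control cells, and the groups did not overlap. The mean ratio was 0.566 and the log2 fold change -0.74 ± 0.13 (SE, limma adjusted p = 3.8e-05), in a range of -0.88 to -0.53 over 12 alternative settings. The coding sequences of Tapbp and Tapbpl are identical at 54.3% of aligned positions, and no 150-base window of Tapbpl occurs in another gene. Tapbpl is found at chr6:125223933-125231860 (mm10, minus strand), outside the MHC, as are Nlrc5, B2m and Erap1.

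Erap1 encodes the aminopeptidase that trims peptides to the length class I binds, and is found at chr13:74639568-74693201 (mm10, plus strand). It read 47.6 and 52.4 CPM in overexpressing cells, against 57.0 and 56.4 CPM in control cells. The groups did not overlap, but overexpression 2 lay close to control, and the log2 fold change of -0.18 ± 0.06 (SE, limma adjusted p = 0.011) was -0.11 without overexpression 1 and no longer passed (adjusted p = 0.15). It also missed the threshold when genes of any level were tested (adjusted p = 0.053). Cast, the calpastatin gene on the opposite strand, overlaps 834 exon bases of Erap1 and read 251 and 265 CPM in overexpressing cells, against 207 and 206 CPM in control cells. Of the 150-base windows of Erap1, 12.5% occur in Cast transcripts. The part of that overlap in the Erap1 values was not tested.

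The remaining genes of the pathway were taken from 8 lists of 68 genes, of which 60 were tested. With overexpression 21 of the 60 were higher (35%), 23 lower (38.3%) and 16 did not pass (26.7%). Those shares lie near the 31.9% and 34.2% over all tested genes. The median log2 fold change was lowest for the immunoproteasome genes (-0.28) and the negative regulators (-0.23). It was -0.08 for the chaperones, -0.06 for the trimming peptidases, 0.04 for the transcription factors, 0.06 for the constitutive catalytic subunits, 0.07 for other class I-type genes and 0.09 for the interferon receptor arm, against -0.01 over all tested genes.

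Genes that generate peptides changed in both directions, as did all tested genes, of which 31.9% were higher and 34.2% lower. Of 5 genes for the immunoproteasome and its PA28 activator, Psmb10 (log2 fold change -0.63 ± 0.09), Psme1 (-0.33 ± 0.04) and Psme2 (-0.28 ± 0.05) fell, Psmb9 rose and Psmb8 did not pass. Psmb10, the gene of the subunit MECL-1, read 24.8 and 22.9 CPM in overexpressing cells, against 33.4 and 41.9 CPM in control cells, and the ratio of Psmb9 to Psmb10 was 1.96 and 1.91 in overexpressing cells, against 0.932 and 0.835 in control cells. Of the constitutive catalytic subunits, Psmb5 fell (-0.40 ± 0.05) and Psmb7 rose (0.15 ± 0.04), and Psmb6 did not pass (143 and 150 CPM in overexpressing cells, 138 and 143 CPM in control cells). The summed ratio of Psmb8, Psmb9 and Psmb10 to the constitutive trio was 0.337 and 0.310 in overexpressing cells and 0.294 and 0.328 in control cells. These groups overlapped (log2 difference 0.06, exact permutation p = 0.667). Psmb8 and Psmb6 passed as higher when libraries were scaled to their own sum. Of 6 tested trimming peptidases, not all of them cytosolic, Lnpep (0.37 ± 0.05) and Npepps (0.14 ± 0.04) rose. Thop1 (-0.31 ± 0.05) and Tpp2 (-0.22 ± 0.05) fell, and Lap3 and Blmh did not pass. Npepps lost its call without overexpression 1 (log2 fold change 0.10).

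The general chaperones and folding enzymes listed for class I loading, not all of them parts of the loading complex, also split, with 2 higher and 3 lower of 5. Of all tested genes 31.9% were higher and 34.2% lower. Calr, which encodes the glycan-binding chaperone calreticulin, read 849 and 839 CPM in overexpressing cells, against 575 and 573 CPM in control cells (log2 fold change 0.55 ± 0.03, limma adjusted p = 9.7e-13). Pdia3, the gene of the tapasin-bound disulphide isomerase ERp57, rose by 0.16 ± 0.03. Uggt1, a folding sensor that returns class I molecules to calreticulin, fell by 0.40 ± 0.03, Canx by 0.13 ± 0.03 and Ganab by 0.08 ± 0.03. Ganab was at the threshold (limma adjusted p = 0.046) and lost its call in 7 alternative settings, among them the library-sum scaling (log2 fold change -0.04) and the replicate block. These proteins serve most glycoproteins of the endoplasmic reticulum, not class I alone.

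Among 16 other class I-type genes, 9 could be tested, and 4 of these were higher, 1 was lower and 4 missed the threshold. The shares over all tested genes were 31.9% higher and 34.2% lower. H2-T10 rose by 1.53 ± 0.16 (5.80 and 5.54 CPM in overexpressing cells, 1.27 and 1.34 CPM in control cells), Cd1d1, the lipid-presenting molecule, by 0.91 ± 0.17 (3.09 and 3.39 CPM in overexpressing cells, 1.18 and 1.33 CPM in control cells), and H2-M3, which presents formylated peptides, by 0.63 ± 0.08. H2-T22, a ligand of gamma-delta T cell receptors and a close relative of H2-T10, rose by 0.29 ± 0.04. Shared transcript stretches were searched for the 10 members alone. How far reads of relatives such as H2-T10 and H2-T22 were told apart was not tested. H2-T10 and Cd1d1 are low, and with a pseudocount of 5 their log2 fold changes were 0.76 and 0.40. H2-Q7, a source of the Qa-2 antigen, read 87.3 and 81.2 CPM in overexpressing cells, against 128 and 123 CPM in control cells, a log2 fold change of -0.57 ± 0.05. H2-Q4, named after its value was seen, read 261 and 248 CPM in overexpressing cells and 252 and 267 CPM in control cells and did not pass (log2 fold change -0.03 ± 0.04, adjusted p = 0.51).

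The 12 transcription factors of class I genes, all tested, comprised 5 higher, 4 lower and 3 that missed the threshold. Over all tested genes 31.9% were higher and 34.2% lower. Rfx5, the DNA-binding subunit of the RFX complex through which NLRC5 acts, rose by 0.66 ± 0.05 (74.2 and 74.0 CPM in overexpressing cells, 46.9 and 45.9 CPM in control cells), and Nfyb (0.45 ± 0.10), Irf2 (0.35 ± 0.07) and Irf1 (0.27 ± 0.05) rose too. Nfyc, a subunit of the CCAAT-binding factor NF-Y, fell to 16.95 and 17.8 CPM in overexpressing cells, against 35.8 and 37.6 CPM in control cells (log2 fold change -1.04 ± 0.08). Creb1 (-0.25 ± 0.05) and Nfkb1 (-0.24 ± 0.04) fell. Rela, the gene of p65, read 91.8 and 86.3 CPM in overexpressing cells, against 92.0 and 94.6 CPM in control cells, and did not pass (log2 fold change -0.07 ± 0.05, adjusted p = 0.22).

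The interferon receptor arm, with 12 genes tested, held 5 higher, 4 lower and 3 that missed the threshold. Beside this count, 31.9% of all tested genes were higher and 34.2% lower. The kinase gene Jak2 (0.57 ± 0.05), the receptor genes Ifnar2 (0.46 ± 0.07) and Ifnar1 (0.37 ± 0.05) and the feedback inhibitor gene Socs3 (0.51 ± 0.05) rose. Socs1, another feedback inhibitor, fell to 4.85 and 4.46 CPM in overexpressing cells, against 11.3 and 9.80 CPM in control cells (log2 fold change -1.03 ± 0.13), and Ifngr1 (-0.32 ± 0.08), Irf9 (-0.30 ± 0.05) and Stat2 (-0.30 ± 0.04) fell. Of 8 genes reported to restrain class I, 5 were lower, 1 was higher and 2 missed the threshold. The list is short, and 34.2% of all tested genes were lower and 31.9% higher. Wwp2 (-0.64 ± 0.05), Susd6 (-0.39 ± 0.04) and Suz12 (-0.24 ± 0.04) fell, and Ezh2, the histone methyltransferase of the Polycomb complex that silences class I loading genes in some tumours, rose by 0.20 ± 0.04. Without overexpression 1 only 3 of the 8 were lower.

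**Figure D4:**
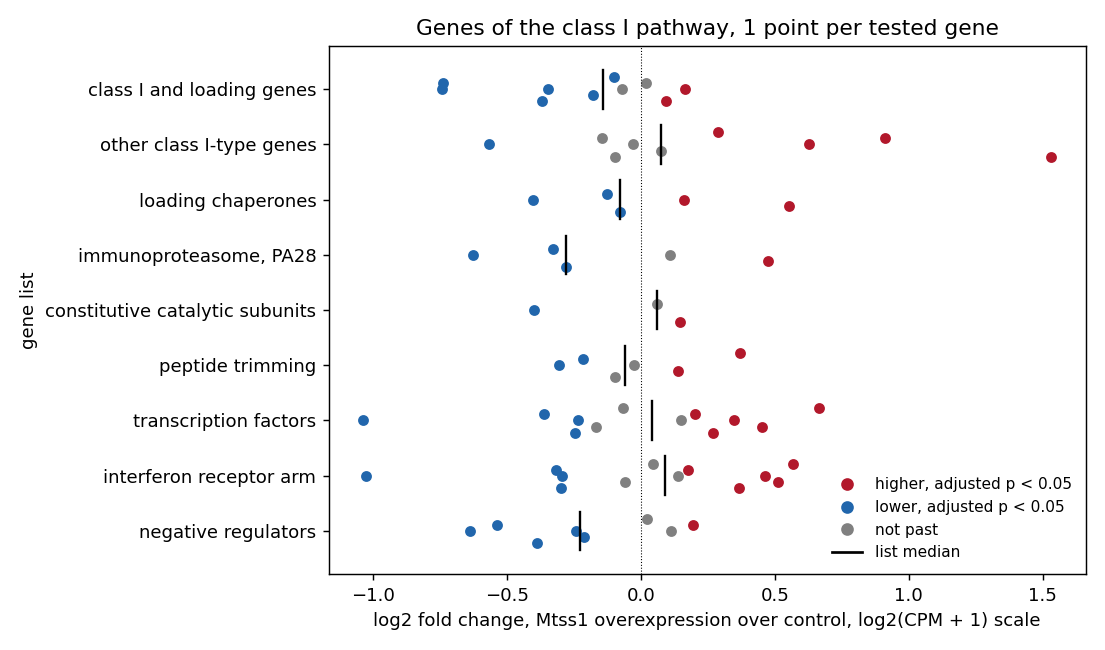
Each point is the limma log2 fold change, Mtss1 overexpression over control, of 1 tested gene, grouped by list, and black lines are list medians. Points lie on both sides of 0 in every list, from -1.04 (Nfyc) to 1.53 (H2-T10).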

How the data were processed

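Total RNA (Trizol) was read in 150-base pairs on a HiSeq, per the labels' protocols. FastQC 0.11.2, STAR, RSEM and mm10 are named without roles in the submitters' processing notes. The authors deposited 1 table of CPM values for 4 libraries, a unit read from the values. The sources used here do not give the scaling method. The CPM of 1 read was taken from the step between low values, and 79.6% to 80.5% of a library's nonzero values were whole multiples of it within 0.005 read. The floor of 3 reads is 0.138 to 0.189 CPM. limma 3.58.1 in R 4.3.3 (lmFit, eBayes with a trend) was fitted to log2(CPM + 1) for the 12510 genes that reached 1 CPM in 2 or more libraries, with Benjamini-Hochberg adjustment and a threshold of 0.05. Each gene had 2 residual degrees of freedom, against a median prior of 20. Its standard error therefore rests mostly on spread pooled across genes of like level. Ratios were compared with exact permutation tests. Genes were matched by symbol, and GENCODE M21 (mm10) gave coordinates, merged exon lengths of basic coding transcripts and overlaps. Promoters are from RefSeq on GRCm38.p6. Alternatives were other pseudocounts, filters and scalings, limma-voom on recovered reads, a replicate block, a stricter threshold and each library left out. The fit was also run on simulated data with far fewer changed genes than were called here, and the outcome of that run is not reported here. Members and lists were chosen with earlier results of these data known. All members are described, and from each list up to 4 genes in each direction with the largest changes past the threshold are named, besides Rela and genes marked as chosen later. Some genes that this rule would name are not reported here. Listed symbols absent from the table (H2-T9 and Nrdc) were not analysed here.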

Additional observations from a re-analysis of the deposited data

How the results depend on the processing

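No member changed direction in 12 alternative settings. Nlrc5, Tapbpl, H2-T23, Tap1 and Tap2 kept their calls throughout. With no filter on low values, H2-D1 (0.10) and Erap1 (-0.18) no longer passed, and with libraries scaled to their own sum Tapbp (-0.064) did not. limma-voom on recovered reads called H2-K1 (-0.069). With each library left out in turn the log2 fold change ran from -0.092 to -0.046 for H2-K1, from 0.081 to 0.11 for H2-D1, from -0.11 to -0.10 for Tapbp and from -0.25 to -0.11 for Erap1. The number of members called higher, 2 in the main analysis, was 1 with an adjusted p under 0.01, 1 with no filter, and 1 to 2 with a library left out. The number called lower, 6 in the main analysis, was 4 with an adjusted p under 0.01, 5 with no filter, 5 with library-sum scaling, 7 with limma-voom and 5 to 7 with a library left out. The counts over all tested genes moved with the setting as well. With an adjusted p under 0.01, and with no filter, fewer genes were called in each direction than in the main analysis. Library-sum scaling called more genes higher and fewer lower, and limma-voom called slightly fewer in each direction. The immunoproteasome ratio difference ran from -0.02 to 0.14 and that of heavy chains to B2m from -0.03 to 0.02 with a library left out, so both changed sign. Same-numbered libraries did not deviate together (r = -0.02 over 12510 genes), and with the replicate block 2 members were higher and 6 lower, as without it. With 2 libraries a group and a low count for Tapbpl, small changes such as those of H2-K1 and Tapbp are at the limit of what these data separate.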

Other observations

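Genes of the class II pathway, which is normally confined to professional antigen-presenting cells, were mostly near 0. Of 10 listed, H2-DMa and H2-DMb1 passed the filter. H2-DMa, a chain of the class II peptide editor DM, read 3.91 and 3.99 CPM in overexpressing cells, against 0.343 and 0.828 CPM in control cells (log2 fold change 1.66 ± 0.19). It passed the filter through the overexpressing libraries alone, so its values are given as a description. H2-DMb1, its partner chain, read 29.5 and 34.0 CPM in overexpressing cells, against 25.2 and 22.4 CPM in control cells (0.40 ± 0.09, limma adjusted p = 2.8e-04). H2-DMa was not tested when 1 CPM was required in all libraries or when either overexpressing library was left out, since too few libraries then reached 1 CPM. Its log2 fold change was 2.66 with a pseudocount of 0.1 and 0.68 with a pseudocount of 5, so its size depends on that setting. The summed immune cell markers were at 1.80 and 1.40 CPM in overexpressing cells and 0.902 and 1.07 CPM in control cells, mostly S100a8, and their part in the H2-DMa values was not tested. The class II transactivator gene Ciita read at most 0.147 CPM, and H2-Aa at most 0.046 CPM. Brd2, a bromodomain gene whose start lies between those of the DM genes, named after its value was seen, read 258 and 252 CPM in overexpressing cells, against 184 and 181 CPM in control cells (0.49 ± 0.04, adjusted p = 1.1e-10).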
